A study of Homo sapiens with 12 samples.

Results

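Diallyl trisulfide (DATS), a garlic organosulfur compound, left the levels of all 13 mitochondrial mRNAs short of the threshold for a change in both breast cell lines examined. Both mitochondrial rRNAs were higher in every DATS library than in any DMSO library of the same line. Such a lack of overlap, in either direction, was also seen for 33.5% of all genes in SK-BR-3 and 29.4% in MCF-10A. Neither rRNA passed the threshold in the main test, while some other methods called 1 or both of them. The transcripts described are the 37 genes of the mitochondrial genome, taken as every gene whose name begins with MT- among the 58735 genes of the deposited expression table. They comprise 13 mRNAs, 2 rRNAs and 22 tRNAs, and these classes are given apart. RNA was sequenced from SK-BR-3 cells given 20 µM DATS for 16 h, SK-BR-3 cells given the solvent DMSO at 0.07% for 16 h, and MCF-10A cells given the same DATS or DMSO exposure. SK-BR-3 derives from a breast adenocarcinoma and carries extra copies of ERBB2, and MCF-10A grew out of non-malignant breast epithelium that became immortal in culture. Each of the 4 groups had 3 independently prepared libraries, numbered 1 to 3, and each line stands for itself only.

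The human mitochondrial genome is a circle transcribed from both strands into long precursors that run through many genes. Most tRNAs sit between mRNAs or rRNAs, and excision of the tRNAs at both ends frees the RNAs on either side. The mRNAs encode core subunits of the respiratory chain and of the ATP synthase, while the 12S and 16S rRNAs and the tRNAs serve the mitochondrial ribosome. All proteins that copy, transcribe, process and translate this genome come from the nucleus. On the GRCh38 map 12 mRNAs, both rRNAs and 14 tRNAs lie on the plus strand, and 1 mRNA, MT-ND6, and 8 tRNAs lie on the minus strand. Neighbours overlap at 5 places, including 46 bases shared by MT-ATP8 and MT-ATP6 (8527 to 8572) and 7 bases shared by MT-ND4L and MT-ND4 (10760 to 10766). The strand setting of the counting is not given in the sources used here, so reads of a gene and reads from its opposite strand cannot be told apart.

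The sequences of 4 minus-strand tRNA genes are shown because they include the 3 tRNA genes with the most reads and both tRNA genes that passed the test with DATS. The letters come from GENCODE 29 on GRCh38, written as DNA on the tRNA strand with the anticodon in capitals. MT-TN (tRNA for asparagine, 5657 to 5729), MT-TC (cysteine, 5761 to 5826) and MT-TY (tyrosine, 5826 to 5891) are neighbours, and MT-TC and MT-TY share 1 base. MT-TP (proline, 15956 to 16023) lies apart from them, next to the plus-strand gene MT-TT (15888 to 15953), which follows MT-CYB.
MT-TN: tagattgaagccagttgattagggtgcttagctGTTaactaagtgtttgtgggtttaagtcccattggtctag
MT-TC: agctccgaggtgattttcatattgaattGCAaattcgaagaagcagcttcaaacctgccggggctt
MT-TY: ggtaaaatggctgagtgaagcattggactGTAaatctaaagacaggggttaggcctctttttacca
MT-TP: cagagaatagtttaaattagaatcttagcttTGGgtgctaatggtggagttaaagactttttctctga
These genes are 66 to 73 bases long and 33.8% to 45.5% G and C.

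Libraries held 15295046 to 18407213 reads in genes. Keratins of basal breast cells marked MCF-10A (KRT14 at 1180 to 1620 FPKM there, and at most 0.303 FPKM in SK-BR-3), and ERBB2 marked SK-BR-3 (377 to 517 FPKM, against 7.91 to 8.81 FPKM in MCF-10A). FPKM are fragments scaled by the authors to gene length and to an effective library size, which was 0.886 to 1.07 of the reads in genes. Leukocyte and fibroblast markers summed to at most 9.36 FPKM in any library. The endothelial marker CDH5 was present in SK-BR-3 (9.75 to 30.0 FPKM), where PECAM1 and VWF were at most 0.0834 FPKM. The sum of these 3 was 21.4 to 30.1 FPKM in SK-BR-3 with DATS, against 9.83 to 15.2 FPKM with DMSO, and its part in the results was not tested. Means carry the SD over the 3 libraries of a group (n = 3). Fold changes are log2 differences with their SE, fitted by limma to log2(FPKM + 1) in the 13194 genes that reached 1 FPKM in 3 or more libraries. Calls used the Benjamini-Hochberg adjustment over all of these genes, with a threshold of 0.05. Adjusted p-values rest on the spread between these preparations. In such bulk cultures, fewer cells with a transcript and less of it per cell cannot be told apart.

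Mitochondrial mRNAs were among the most abundant transcripts of every group. Of the 10 genes with the highest mean FPKM, 9 were mitochondrial in SK-BR-3 with DATS and 9 with DMSO, and 7 in MCF-10A with DATS and 7 with DMSO. MT-CO2 and MT-CO1, subunits of cytochrome c oxidase (complex IV), were the top 2 mRNAs in all 4 groups. MT-CO2 averaged 14532 ± 3435 FPKM in SK-BR-3 with DATS and 14306 ± 999 FPKM with DMSO, and MT-CO1 averaged 10127 ± 660.5 FPKM in MCF-10A with DATS and 9485 ± 558.5 FPKM with DMSO. Their libraries overlapped with each other in every group, so their order was not resolved. MT-ATP8, a small subunit of the ATP synthase (complex V), was the lowest mRNA in all 4 groups, at 835 ± 245 FPKM in SK-BR-3 with DATS and 693 ± 53.6 FPKM with DMSO, and at 723 ± 13.04 FPKM in MCF-10A with DATS and 633 ± 40.0 FPKM with DMSO. The top mRNA exceeded MT-ATP8 by 17.4-fold and 20.6-fold in SK-BR-3 with DATS and DMSO, and by 14.01-fold and 14.98-fold in MCF-10A.

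Between these ends the order differed by line. In SK-BR-3 with DMSO, MT-ND4, a membrane subunit of complex I, came next after MT-CO1 at 8028 ± 372 FPKM, with no overlap of libraries with MT-CO1 above it or MT-ATP6 below it. In MCF-10A, MT-CO3, the remaining complex IV subunit of this genome, held that place, at 5930.3 ± 314 FPKM with DATS and 5921 ± 818 FPKM with DMSO. With DMSO it overlapped with MT-ATP6, the proton channel subunit of the ATP synthase. Some neighbours in the order were not separable by their libraries in any group, among them MT-ND2 and MT-ND1, and the highest library of an mRNA exceeded its lowest in the same group by a median of 1.67-fold in SK-BR-3 with DATS, against 1.17-fold with DMSO, and by 1.19-fold in MCF-10A with DATS, against 1.18-fold with DMSO.

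**Figure D1:**
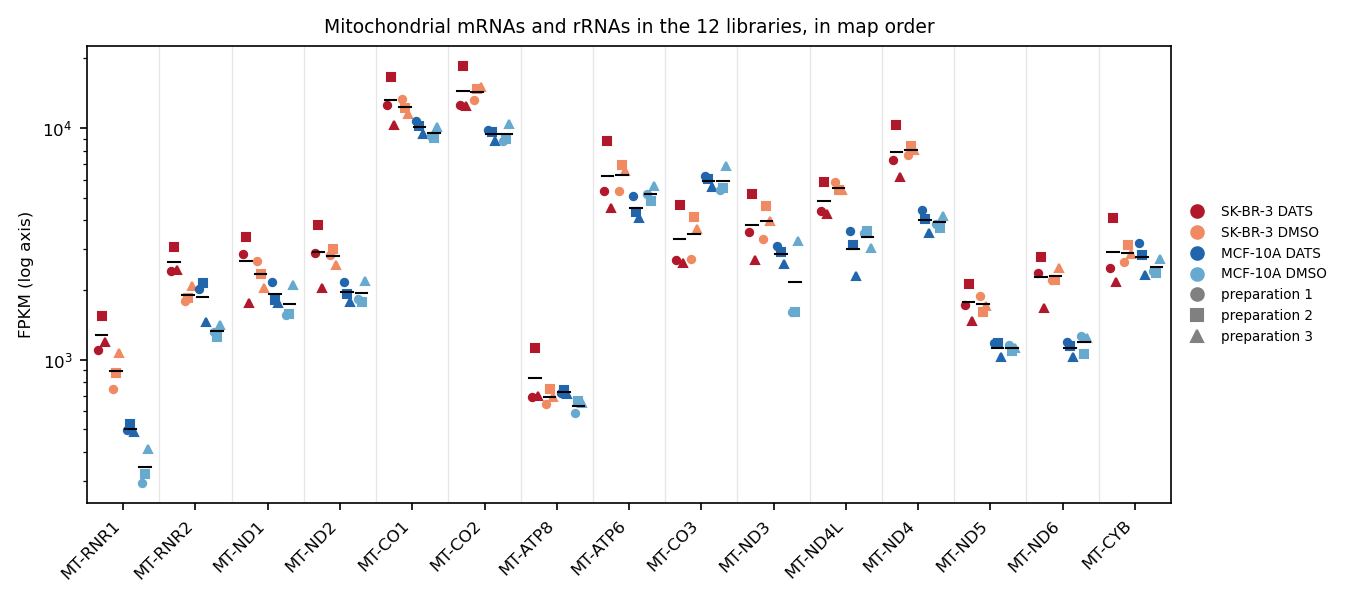
FPKM on a log axis of the 2 rRNAs and 13 mRNAs, in map order, in each of the 12 libraries (points, with shapes for the preparation and colours for the group; black lines are means of 3). MT-RNR1 shows the widest separation between the lines, and SK-BR-3 DATS preparation 2 lies above its 2 companion libraries at 13 of 13 mRNAs.

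Genes that share an mRNA were not counted at equal levels. MT-ATP8 and MT-ATP6 are read from a common bicistronic mRNA, yet the FPKM of MT-ATP8 was 0.137 ± 0.0156 of that of MT-ATP6 in SK-BR-3 with DATS and 0.111 ± 0.00811 with DMSO, and 0.162 ± 0.0178 in MCF-10A with DATS and 0.122 ± 0.0129 with DMSO. Every DATS library had a higher ratio than every DMSO library of the same line. MT-ND4L and MT-ND4, which also share an mRNA, had ratios of 0.619 ± 0.0656 and 0.692 ± 0.0653 in SK-BR-3 with DATS and DMSO, and of 0.744 ± 0.0834 and 0.869 ± 0.127 in MCF-10A. Those groups overlapped. These ratios were described and not tested, and the counting of reads that fall in the shared bases is not given in the sources used here.

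By respiratory complex, the mRNA pool was described by shares, without a test. The 7 complex I mRNAs made up 39.0% ± 1.54 of the summed mRNA FPKM in SK-BR-3 with DATS and 40.1% ± 0.915 with DMSO, and 32.3% ± 1.03 in MCF-10A with DATS and 31.8% ± 0.298 with DMSO. The 3 complex IV mRNAs made up 46.4% ± 1.55 and 45.2% ± 0.434 in SK-BR-3 with DATS and DMSO, and 51.6% ± 1.53 and 51.0% ± 0.482 in MCF-10A. The single complex III mRNA, MT-CYB, made up 4.28% ± 0.374 and 4.31% ± 0.216 in SK-BR-3, and 5.60% ± 0.410 and 5.15% ± 0.0702 in MCF-10A, again with DATS before DMSO. The complex V pair differed in MCF-10A, with 10.9%, 10.2% and 10.7% in the DATS libraries, against 12.4%, 12.02% and 11.7% in the DMSO libraries, and these groups did not overlap. In SK-BR-3 its share was 10.3% ± 0.883 with DATS and 10.4% ± 0.962 with DMSO.

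In SK-BR-3, 0 of 13 mRNAs passed the test with DATS by limma, against 18.1% of all genes called (1485 higher, or 11.3%, and 906 lower, or 6.87%; with library sizes taken as all reads in genes, 878 higher and 1340 lower). None had an unadjusted p under 0.05, and edgeR, DESeq2 and the fit with the replicate number as a block also called 0. Log2 changes ran from -0.21 for MT-ND4L to 0.23 for MT-ATP8, with a median of -0.03, beside a median of 0.03 over all genes. With any 1 library left out, MT-ND4L ran from -0.36 to -0.13 and MT-ATP8 from 0.003 to 0.35, and the lower limit of each came without SK-BR-3 DATS preparation 2. The libraries of 0 of 13 mRNAs separated by treatment, against 33.5% of all genes. MT-ND4L, a small complex I subunit, had 4373, 5837.5 and 4276 FPKM with DATS, against 5858, 5382 and 5383 FPKM with DMSO. MT-CO2 had 12576, 18498 and 12521 FPKM with DATS, against 13167, 14719 and 15033 FPKM with DMSO. Preparation 2 with DATS was the highest of its group at 13 of 13 mRNAs and preparation 3 the lowest at 12 of 13, so the treated libraries lay on both sides of the untreated ones. Within preparations, the median mRNA change was -0.01, 0.34 and -0.34 log2 units in preparations 1, 2 and 3.

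In MCF-10A, 0 of 13 mRNAs passed the test by limma, against 6.28% of all genes called (550 higher, or 4.17%, and 279 lower, or 2.11%; 440 higher and 463 lower with library sizes as all reads in genes). None had an unadjusted p under 0.05, and edgeR, DESeq2 and the block fit called 0. Log2 changes ran from -0.22 for MT-ATP6 to 0.49 for MT-ND3, with a median of 0.01, beside 0.02 over all genes. With any 1 library left out, MT-ATP6 ran from -0.31 to -0.15 and MT-ND3 from 0.32 to 0.83. Only MT-ATP8 had groups that did not overlap, 1 of 13 against 29.4% of all genes. MT-ND3, a complex I subunit, had 3107, 2908 and 2600.4 FPKM with DATS, against 1613, 1609.6 and 3254 FPKM with DMSO (0.49 ± 0.29, adjusted p = 0.33). DMSO preparation 3 was its highest library, and without that library MT-ND3 passed the test (0.83, adjusted p = 0.0412). MT-ATP6 had 5101, 4325 and 4099 FPKM with DATS, against 5205, 4847 and 5609 FPKM with DMSO (-0.22 ± 0.22, adjusted p = 0.602), and passed the test after quantile normalization (-0.38, adjusted p = 0.0203). That scaling gives genes of equal rank the same value in every library, which limits the differences it can show among the most abundant genes. Preparation 3 with DATS was the lowest of its group at 13 of 13 mRNAs, and the median mRNA change within preparations was 0.20, 0.13 and -0.25 log2 units.

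As shares of all reads in genes, mRNAs took 5.27%, 7.38% and 4.62% in SK-BR-3 with DATS, against 6.09%, 6.02% and 5.94% with DMSO. In MCF-10A they took 5.12%, 4.73% and 4.11% with DATS, against 4.70%, 4.63% and 4.95% with DMSO. The treated groups spread to both sides of the untreated groups in both lines.

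The 2 rRNAs were higher with DATS in both lines, by values that lay short of the threshold in the main test. MT-RNR1, the 12S rRNA of the small mitochondrial ribosomal subunit (648 to 1601, plus strand), had 1098, 1543 and 1196 FPKM in SK-BR-3 with DATS, against 744, 875 and 1064 FPKM with DMSO. In MCF-10A it had 495, 527 and 486 FPKM with DATS, against 295, 322 and 411 FPKM with DMSO. MT-RNR2, the 16S rRNA of the large subunit (1671 to 3229, plus strand), had 2417, 3075 and 2434 FPKM in SK-BR-3 with DATS, against 1792, 1848 and 2088 FPKM with DMSO. In MCF-10A it had 2016.5, 2153 and 1451 FPKM with DATS, against 1317, 1256 and 1414 FPKM with DMSO. Groups did not overlap for either rRNA in either line, as for 33.5% of all genes in SK-BR-3 and 29.4% in MCF-10A. The narrowest margins were those of MT-RNR1 in SK-BR-3 and of MT-RNR2 in MCF-10A.

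Log2 changes of MT-RNR1 were 0.52 ± 0.17 in SK-BR-3 (adjusted p = 0.0522) and 0.57 ± 0.17 in MCF-10A (adjusted p = 0.0652). Those of MT-RNR2 were 0.46 ± 0.15 in SK-BR-3 (adjusted p = 0.0592) and 0.48 ± 0.15 in MCF-10A (adjusted p = 0.0891). By limma 0 of 2 passed in each line, while both had an unadjusted p under 0.05 in both lines, as did 32.8% of all genes in SK-BR-3 and 23.6% in MCF-10A. The fit with the replicate block called MT-RNR1 in both lines (adjusted p = 0.0364 in SK-BR-3 and 0.0408 in MCF-10A) and not MT-RNR2 (adjusted p = 0.0707 and 0.0878), and it called 27.4% and 15.9% of all genes. DESeq2 on the recovered reads called both rRNAs in both lines (adjusted p = 0.0165 and 0.0197 in SK-BR-3, 0.0133 and 0.0171 in MCF-10A), beside 22% and 11% of all genes. edgeR called 0 of 2 in either line, beside 17.1% and 5.96% of all genes. Library sizes without mitochondrial reads gave MT-RNR1 0.42 in SK-BR-3 (adjusted p = 0.0878) and 0.49 in MCF-10A (0.0834). They gave MT-RNR2 0.37 (0.141) and 0.40 (0.156). With the 6 libraries of a line alone, adjusted p was 0.166 for MT-RNR1 and 0.175 for MT-RNR2 in SK-BR-3. In MCF-10A it was 0.0897 and 0.207. Quantile normalization, which limits the differences among the most abundant genes, lowered the MT-RNR2 values to 0.18 in SK-BR-3 (adjusted p = 0.432) and 0.14 in MCF-10A (adjusted p = 0.61). It left MT-RNR1 at 0.34 in SK-BR-3 (adjusted p = 0.0761) and called it in MCF-10A (0.43, adjusted p = 0.0457). Single libraries decided some of these calls. MT-RNR1 passed in MCF-10A without DMSO preparation 3 (0.70, adjusted p = 0.0203) and MT-RNR2 passed there without DATS preparation 3 (0.65, adjusted p = 0.0319). In SK-BR-3, MT-RNR1 passed without DATS preparation 1, DMSO preparation 3 or the MCF-10A library DMSO preparation 3, and MT-RNR2 passed without the MCF-10A library DATS preparation 3.

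Within preparations the median rRNA change was 0.50, 0.78 and 0.19 log2 units in SK-BR-3 preparations 1, 2 and 3, and 0.68, 0.74 and 0.14 in MCF-10A. It was positive for both rRNAs in all 6 pairs of libraries, which follows from the lack of overlap, and smallest in preparation 3 of both lines. Set against the mRNAs of the same library, rRNA reads came to 8.10%, 7.54% and 9.82% of the number of mRNA reads in SK-BR-3 with DATS, against 5.65%, 5.74% and 6.90% with DMSO. In MCF-10A they came to 7.13%, 8.15% and 6.35% with DATS, against 5.29%, 5.25% and 5.20% with DMSO. These groups did not overlap in either line. A ratio of this kind shows that rRNA and mRNA reads changed unequally and not which of them changed.

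Other RNA classes were described in the same libraries without a test, and their part in the rRNA values was not tested. Reads in 2852 genes for small nuclear and small nucleolar RNAs took 0.00303% to 0.00507% of gene reads in SK-BR-3 with DATS, against 0.00531% to 0.00839% with DMSO, and 0.00313% to 0.00400% in MCF-10A with DATS, against 0.00461% to 0.00582% with DMSO. Reads in 90 histone genes, most of whose mRNAs lack a poly(A) tail, took 0.0208% to 0.0229% in SK-BR-3 with DATS, against 0.0217% to 0.0263% with DMSO, and 0.0130% to 0.0137% in MCF-10A with DATS, against 0.00721% to 0.00962% with DMSO. The histone shares of DATS and DMSO libraries overlapped in SK-BR-3, and the other 3 pairs of groups did not overlap. The 58 nuclear rRNA genes held at most 7 reads in any library. Whether libraries were made by poly(A) selection or by rRNA depletion is not given in the sources used here.

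**Figure D2:**
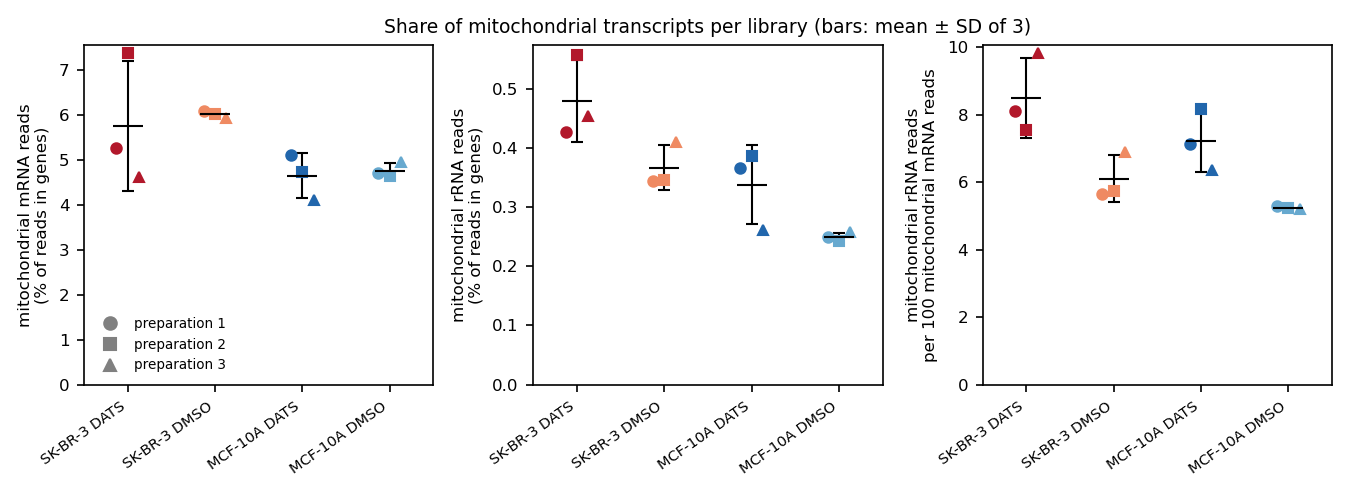
Mitochondrial mRNA reads and rRNA reads as a percentage of reads in genes, and rRNA reads as a percentage of the number of mRNA reads, for each library (points, with shapes for the preparation; bars are mean ± SD of 3). The mRNA shares of DATS and DMSO libraries overlap in both lines, while rRNA reads lie at 7.54% to 9.82% of mRNA reads with DATS and at 5.65% to 6.90% with DMSO in SK-BR-3, and at 6.35% to 8.15% with DATS and 5.20% to 5.29% with DMSO in MCF-10A.

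Reads in tRNA genes were far fewer. They took 0.0414% to 0.04496% of gene reads in SK-BR-3 with DATS, against 0.0296% to 0.0386% with DMSO, and 0.0188% to 0.0202% in MCF-10A with DATS, against 0.0188% to 0.0203% with DMSO. Of the 22 tRNA genes, 11 had at least 10 reads in at least 3 libraries, and the other 11 never exceeded 14 reads. All 22 passed the expression filter, since 1 read in so short a gene is worth nearly 1 FPKM. The highest 3 were the minus-strand genes MT-TN (1689 to 3422 reads), MT-TC (568 to 1679 reads) and MT-TP (439 to 2963 reads) shown above, while the other minus-strand tRNA genes besides MT-TY were among those that never exceeded 14 reads. Reads from a processed tRNA, from an unprocessed precursor and from the opposite strand cannot be told apart here.

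In SK-BR-3, 1 of 22 tRNA genes was called with DATS, against 18.1% of all genes. MT-TN, which carries asparagine, had 2733, 2871 and 2833 FPKM with DATS, against 1784, 1735 and 2223 FPKM with DMSO. The groups did not overlap, and MT-TN rose by 0.56 ± 0.11 log2 units (adjusted p = 0.0067). The call held in 12 of 12 fits that each left out 1 library (highest adjusted p = 0.0284), and was lost with quantile normalization (0.53, adjusted p = 0.0769), with no filter on low values and with the 6 SK-BR-3 libraries alone (adjusted p = 0.111). MT-TP, which carries proline, had 2213, 2696 and 2454 FPKM with DATS, against 1651, 1758 and 1892 FPKM with DMSO, again without overlap. Its change of 0.47 ± 0.16 had an adjusted p of 0.0687, and 0.00872 in the block fit, and it was 0.18 after quantile normalization (adjusted p = 0.508). MT-TL1, a leucine tRNA that follows the 16S gene, had 49.5, 153 and 102 FPKM with DATS, against 37.3, 29.3 and 55.9 FPKM with DMSO (1.20 ± 0.40, adjusted p = 0.0595). The block fit (adjusted p = 0.0339), edgeR (0.0486) and DESeq2 (0.0103) called it, although 1 DATS library lay within the DMSO range. By limma, MT-TL1 passed without SK-BR-3 DATS preparation 1 or MCF-10A DMSO preparation 3, and MT-TP without preparation 3 of MCF-10A with DATS or with DMSO. MT-TC and MT-TR passed without SK-BR-3 DMSO preparation 3, and MT-TY without SK-BR-3 DATS preparation 2. Of the 11 better-counted tRNA genes 10 had a positive log2 change, and MT-TY was the exception at 19.1, 32.8 and 9.16 FPKM with DATS, against 33.3, 37.9 and 27.1 FPKM with DMSO (-0.82 ± 0.37, adjusted p = 0.152). These 11 genes share the same libraries, and the count of signs was not tested.

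In MCF-10A, 1 of 22 tRNA genes was called, against 6.28% of all genes. MT-TY, which carries tyrosine, had 13.6, 12.3 and 12.9 FPKM with DATS, against 61.0, 52.9 and 28.0 FPKM with DMSO, from 15, 14 and 14 reads against 71, 69 and 33 reads. The groups did not overlap, and MT-TY fell by 1.72 ± 0.37 log2 units (adjusted p = 0.0246, and 0.0104 in the block fit). The fall stayed between 1.51 and 2.06 log2 units with any library left out, but the call was lost without any one of the 3 DATS libraries or without DMSO preparation 1 or 2 (highest adjusted p = 0.123), with no filter on low values, and with the 6 MCF-10A libraries alone (adjusted p = 0.0575). Of its neighbours, MT-TN had 1486, 1628 and 1484 FPKM with DATS, against 1312, 1260.04 and 1402 FPKM with DMSO (0.21 ± 0.11, adjusted p = 0.272). MT-TC had 553, 594 and 521 FPKM with DATS, against 626, 573 and 621 FPKM with DMSO (-0.13 ± 0.16, adjusted p = 0.701). Of the 11 better-counted tRNA genes 3 had a positive log2 change. The median over the 11 was -0.43, beside 0.02 over all genes, against 0.56 in SK-BR-3, beside 0.03 over all genes. MT-TI, MT-TT and MT-TS2 had at most 17, 26 and 17 reads in any library. MT-TI and MT-TS2 were chosen in part through their MCF-10A DMSO reads, which favours a negative change in that line. The 11 genes share the same libraries, and neither the signs nor the medians were tested as a set. The block fit called 3 of 22, against 15.9% of all genes, adding MT-TS2 (serine, adjusted p = 0.0207) and MT-TD (aspartate, adjusted p = 0.00818), which had at most 14 and 9 reads in an MCF-10A library. In SK-BR-3 the block fit called 4 of 22, against 27.4% of all genes. These were MT-TN, MT-TP, MT-TL1 and MT-TD (adjusted p = 0.0204 for the last, with at most 4 reads in an SK-BR-3 library).

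**Figure D3:**
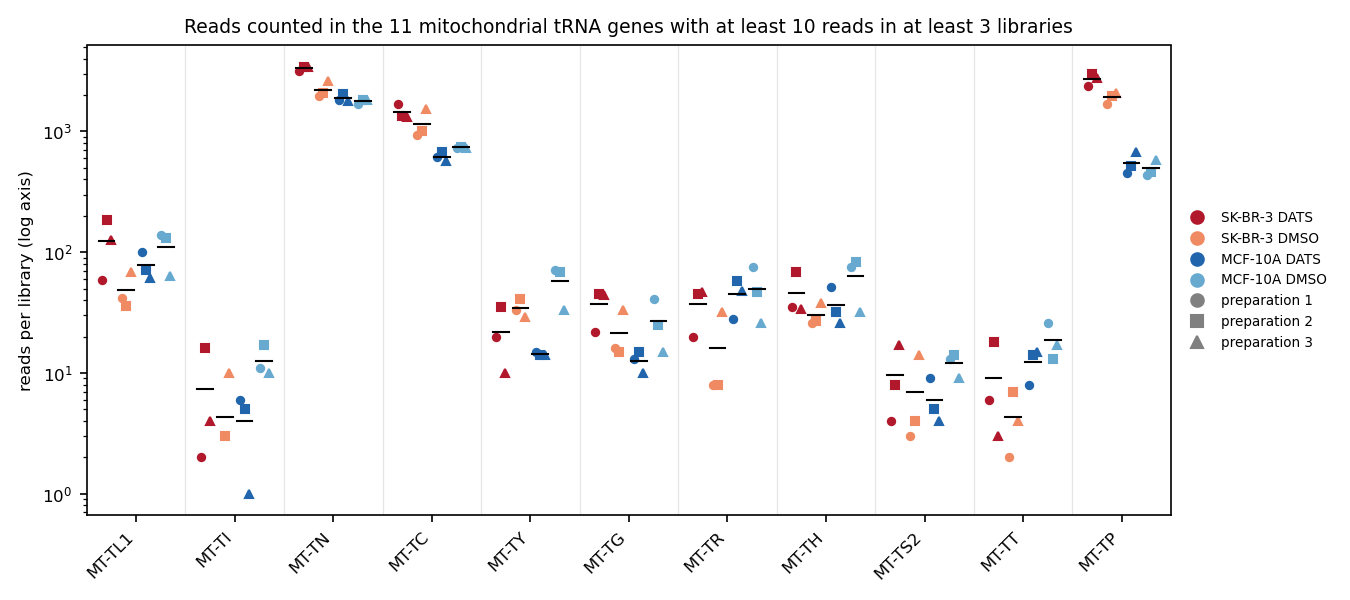
Reads per library on a log axis in the 11 tRNA genes with at least 10 reads in at least 3 libraries (points by group and preparation; black lines are means of 3). MT-TN, MT-TC and MT-TP stand above the rest, the MT-TY counts of the 3 MCF-10A DATS libraries (14 to 15 reads) lie below those of the DMSO libraries (33 to 71 reads), and the 0 reads of MT-TI in SK-BR-3 DMSO preparation 1 cannot be drawn.

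The difference of the DATS responses, SK-BR-3 minus MCF-10A, passed the test for 0 of 13 mRNAs, 0 of 2 rRNAs and 0 of 22 tRNAs by limma, against 4.29% of all genes called (2.48% higher and 1.81% lower). At an unadjusted p under 0.05 stood 0 mRNAs, 0 rRNAs and 8 tRNAs, against 21.1% of all genes. The rRNA responses were close, with differences of -0.05 ± 0.24 for MT-RNR1 (adjusted p = 0.93) and -0.01 ± 0.22 for MT-RNR2 (adjusted p = 0.981), which shows no difference at this precision and does not show that they are equal. The widest mRNA difference was that of MT-ND3 (-0.59 ± 0.40, adjusted p = 0.432). All 11 better-counted tRNA genes had a positive difference, with a median of 1.12, beside 0.005 over all genes. The 11 genes share the same libraries, and the count of signs was not tested. MT-TI, MT-TT and MT-TS2 reached 10 reads in only 5, 6 and 4 libraries, in part those of MCF-10A with DMSO. High values there raise this difference, so the choice of genes favours a positive sign. The smallest adjusted p among the 11 was that of MT-TG, for glycine (1.57 ± 0.53, adjusted p = 0.122), which passed the test without MCF-10A DMSO preparation 3. The block fit called 3 tRNA genes, against 9.82% of all genes. These were MT-TG (adjusted p = 0.0498), MT-TS2 (0.0211) and MT-TD (0.00672). DESeq2 called 1, MT-TL1 (1.53 ± 0.57 by limma, DESeq2 adjusted p = 0.0396), against 8.29% of all genes, and edgeR called 0, against 3.52%.

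**Figure D4:**
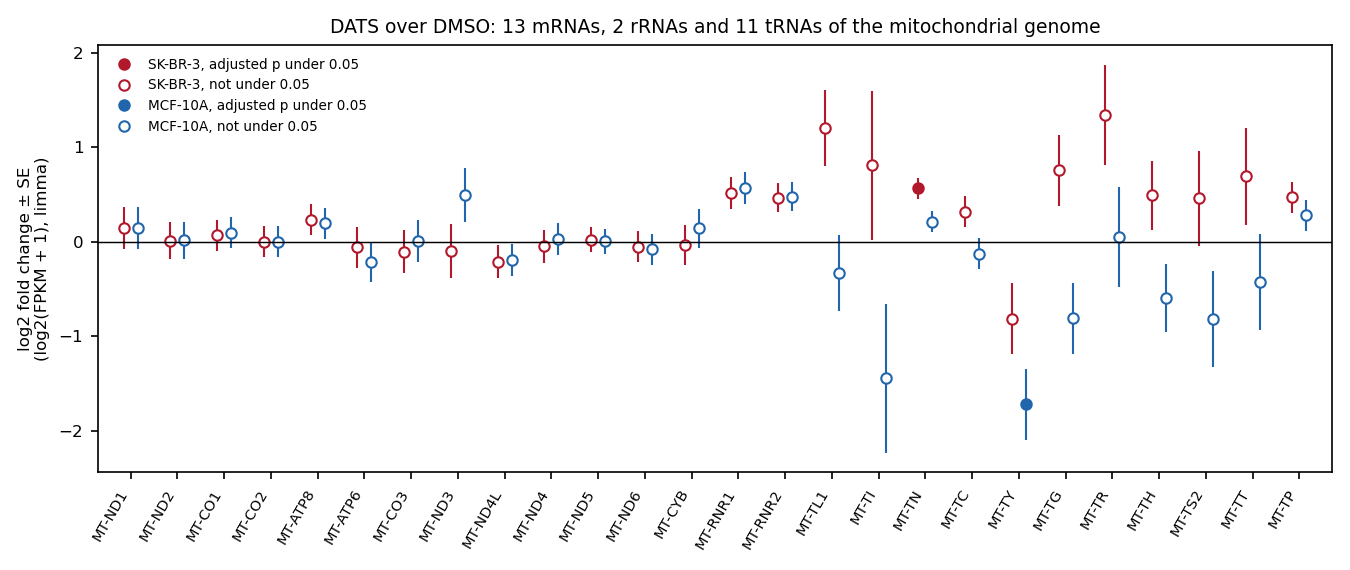
Log2 fold changes ± SE (limma on log2(FPKM + 1)) of DATS over DMSO in SK-BR-3 and MCF-10A for the 13 mRNAs, the 2 rRNAs and the 11 better-counted tRNA genes; filled points have an adjusted p under 0.05. The mRNAs lie between -0.21 and 0.23 in SK-BR-3, and between -0.22 and 0.49 in MCF-10A, where MT-ND3 is highest. Both rRNAs lie between 0.46 and 0.57 in both lines, a range that includes MT-ND3 in MCF-10A. The filled points are MT-TN in SK-BR-3 (0.56) and MT-TY in MCF-10A (-1.72).

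The lines differed from each other without DATS. In DMSO, 8 of 13 mRNAs differed between SK-BR-3 and MCF-10A, against 72.1% of all genes called. Groups without overlap were seen for 9 of 13, against 73.9% of all genes. These shares in either direction were not above the background. By direction 7 of 13 were higher in SK-BR-3, against 36.6% of all genes, and 1 was lower, against 35.5%. The log2 values were positive for 12 of 13, with a median of 0.54, beside 0.01 over all genes. The mRNAs share the same libraries, and their direction as a set was not tested. The 7 mRNAs that were higher in SK-BR-3 included 6 of the 7 complex I mRNAs. MT-ND4 had 7651, 8395 and 8038 FPKM in SK-BR-3, against 3864, 3705 and 4188 FPKM in MCF-10A (1.03 ± 0.17, adjusted p = 0.000172). MT-ND6, the only mRNA on the minus strand, had 2217, 2199 and 2496 FPKM in SK-BR-3, against 1260.03, 1062 and 1239.8 FPKM in MCF-10A (0.96 ± 0.16, adjusted p = 0.000225). At an unadjusted p under 0.05 stood 9 of 13, against 74.1% of all genes. edgeR and DESeq2 called 9 of 13, against 71.9% and 72.1% of all genes, and the block fit called 8, against 73.1%. MT-ND3 (0.95), MT-ND4L (0.71), MT-ND5 (0.62), MT-CO2 (0.61) and MT-ND2 (0.54) were the others that rose. MT-ND2 was not called without MCF-10A DMSO preparation 1 or 2 or SK-BR-3 DMSO preparation 1 or 2, with log2 values of 0.49 to 0.53 in those fits. It was not called either with library sizes that left out mitochondrial reads (0.44, adjusted p = 0.0525) or after quantile normalization (0.31, adjusted p = 0.0875). Quantile normalization also ended the MT-CO2 call (0.04, adjusted p = 0.598). MT-CO2 was among the most abundant genes of both lines, where that scaling can show little difference, so the loss does not decide the matter.

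MT-CO3 was the 1 mRNA that was lower in SK-BR-3, with 2709.5, 4114 and 3684 FPKM in SK-BR-3, against 5403, 5495 and 6864 FPKM in MCF-10A (-0.77 ± 0.22, adjusted p = 0.00844). Its level set against MT-CO2 was 0.206, 0.280 and 0.245 in SK-BR-3 with DMSO, against 0.614, 0.611 and 0.657 in MCF-10A with DMSO. With DATS the same ratio was 0.215, 0.253 and 0.209 in SK-BR-3, against 0.632, 0.626 and 0.634 in MCF-10A, so the lines did not overlap under either exposure. MT-CO1 had 13377, 12168 and 11505 FPKM in SK-BR-3, against 9288, 9051 and 10115 FPKM in MCF-10A (0.38 ± 0.16, adjusted p = 0.0554), and its sign turned under quantile normalization (-0.04). Without SK-BR-3 DATS preparation 2 or 3, which share the fitted spread, MT-CO1 passed the test. Under quantile normalization MT-ATP6 was lower in SK-BR-3 (-0.22, adjusted p = 0.0336), where the value without it was 0.25 (adjusted p = 0.306). MT-CO1 and MT-ATP6 were among the most abundant genes, where that scaling can show little difference.

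Both rRNAs were called as higher in SK-BR-3, by unequal amounts, against 72.1% of all genes called (36.6% as higher). MT-RNR1 rose by 1.38 ± 0.17 log2 units over MCF-10A (adjusted p = 1.25e-05) and MT-RNR2 by 0.52 ± 0.15 (adjusted p = 0.00957). The MT-RNR2 call was lost with quantile normalization (0.22, adjusted p = 0.191). The FPKM of the 12S rRNA was 0.415, 0.474 and 0.510 of that of the 16S rRNA in SK-BR-3 with DMSO, against 0.224, 0.256 and 0.291 in MCF-10A with DMSO. With DATS this ratio was 0.454, 0.502 and 0.491 in SK-BR-3, against 0.245, 0.245 and 0.335 in MCF-10A. The lines did not overlap in it, while DATS and DMSO libraries of each line did.

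Among tRNA genes 10 of 22 differed between the lines in DMSO, 4 higher and 6 lower in SK-BR-3, against 72.1% of all genes called (36.6% higher and 35.5% lower). MT-TP stood first, with 1651, 1758 and 1892 FPKM in SK-BR-3, against 366, 342 and 478 FPKM in MCF-10A (2.17 ± 0.16, adjusted p = 2.13e-07). MT-TC (0.83) and MT-TN (0.52) were also higher, MT-TN with no call under quantile normalization (0.25, adjusted p = 0.244). MT-TT, for threonine (-1.74 ± 0.51, adjusted p = 0.00934), and MT-TR, for arginine (-1.52 ± 0.53, adjusted p = 0.0215), were lower. MT-TR was not called without MCF-10A DMSO preparation 1 or SK-BR-3 DMSO preparation 1 or 2, with log2 values of -1.14 to -1.25. The other 5 called tRNA genes had at most 14 reads in any library.

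**Figure D5:**
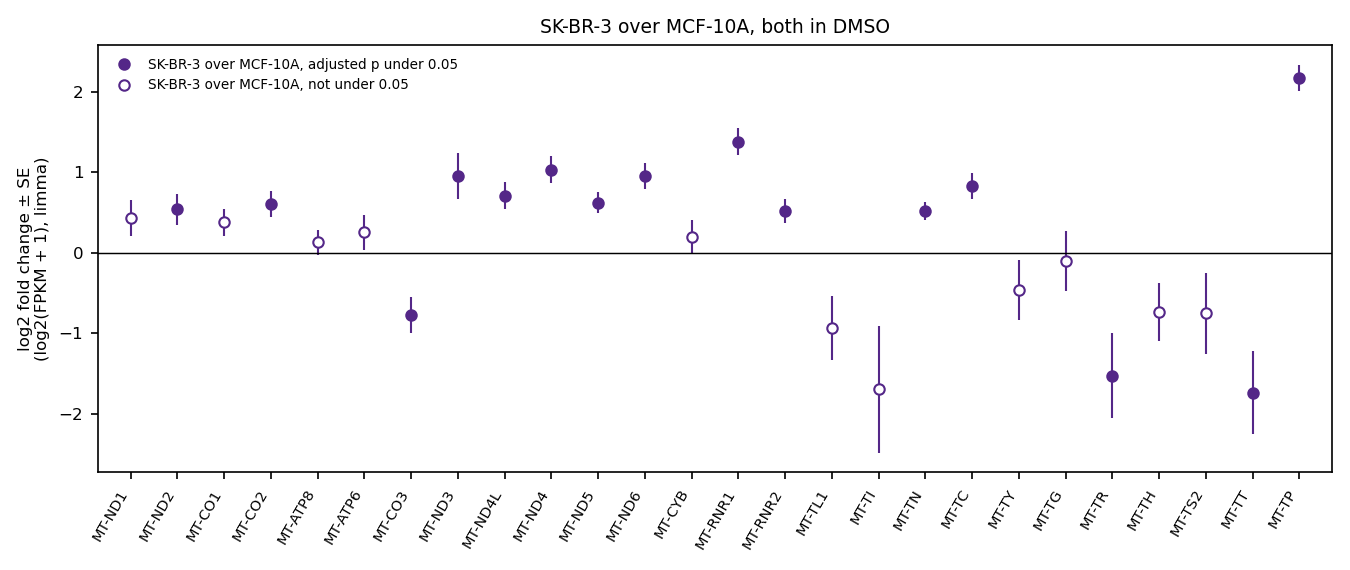
Log2 fold changes ± SE (limma on log2(FPKM + 1)) of SK-BR-3 over MCF-10A, both in DMSO, for the 13 mRNAs, the 2 rRNAs and the 11 better-counted tRNA genes; filled points have an adjusted p under 0.05. MT-TP (2.17) and MT-RNR1 (1.38) lie highest, and MT-CO3 (-0.77) is the single filled mRNA below 0.

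Nuclear genes that act on this genome were followed as lists. Of 9 tested genes of mitochondrial transcription, 0 rose and 1 fell in each line with DATS, against 6.87% of all genes called as lower in SK-BR-3 and 2.11% in MCF-10A. The list medians were 0.05 in SK-BR-3 and -0.12 in MCF-10A, beside 0.03 and 0.02 over all genes. MTERF4, which acts in assembly of the mitochondrial ribosome, fell in SK-BR-3 to 2.57 ± 0.253 FPKM with DATS, against 3.81 ± 0.765 FPKM with DMSO (-0.42 ± 0.11, adjusted p = 0.0277). TFAM, which packages the genome and opens its promoters, fell in MCF-10A to 9.62 ± 0.606 FPKM with DATS, against 13.2 ± 1.15 FPKM with DMSO (-0.42 ± 0.09, adjusted p = 0.0241). In SK-BR-3 TFAM had 18.4 ± 2.03 FPKM with DATS and 16.8 ± 0.248 FPKM with DMSO (0.12 ± 0.09, adjusted p = 0.393), and the difference of the responses passed the test (0.54 ± 0.13, adjusted p = 0.0406). Leaving out single libraries ended these calls in part. The MTERF4 call was lost without SK-BR-3 DATS preparation 1 or 3 or DMSO preparation 2 or 3, the TFAM call in MCF-10A without any one of its DATS libraries or DMSO preparation 1 or 2, and the TFAM difference in all but 3 of 12 such fits.

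Of 13 genes of mtDNA maintenance, 0 were called in either line with DATS, against 18.1% of all genes in SK-BR-3 and 6.28% in MCF-10A. Of 6 tested nuclear regulators 1 rose in SK-BR-3, against 11.3% of all genes called as higher there, and 0 were called in MCF-10A. The one called was GABPB1, a subunit of a factor that drives respiratory genes, with 7.11 ± 0.610 FPKM with DATS, against 4.97 ± 0.743 FPKM with DMSO (0.45 ± 0.11, adjusted p = 0.0167). Its call was lost without SK-BR-3 DATS preparation 1 or DMSO preparation 3. Of 9 translation factors 0 were called in either line. The block fit, which called 27.4% of all genes in SK-BR-3 and 15.9% in MCF-10A, moved these short counts. In MCF-10A it called 1 of mtDNA maintenance as higher, 2 of transcription as lower, 2 regulators as lower, and 1 translation factor as higher. In SK-BR-3 it called 2 of transcription as lower and left the other 3 counts as they were.

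Of 26 genes of mitochondrial RNA processing and stability, 2 rose and 2 fell in SK-BR-3, against 11.3% of all genes called as higher and 6.87% as lower. In MCF-10A 0 were called, against 6.28%. GTPBP3, which modifies the wobble base of mitochondrial tRNAs, fell to 5.37 ± 0.395 FPKM in SK-BR-3 with DATS, against 9.40 ± 0.135 FPKM with DMSO (-0.71 ± 0.07, adjusted p = 0.00034). In MCF-10A it had 6.76 ± 0.598 FPKM with DATS and 8.07 ± 0.250 FPKM with DMSO (-0.23 ± 0.07, adjusted p = 0.0918). FASTK, whose mitochondrial isoform is needed for MT-ND6 mRNA, fell to 26.3 ± 3.89 FPKM in SK-BR-3 with DATS, against 35.9 ± 0.721 FPKM with DMSO (-0.45 ± 0.10, adjusted p = 0.0116). REXO2, an exonuclease that degrades very short RNAs, rose to 13.6 ± 1.15 FPKM, against 10.3 ± 0.180 FPKM (0.36 ± 0.09, adjusted p = 0.0222), a call lost without SK-BR-3 DATS preparation 2 or 3 or DMSO preparation 2 or 3. The list medians were -0.07 in SK-BR-3 and -0.09 in MCF-10A, where the block fit called 1 as higher and 1 as lower, against 15.9% of all genes in either direction.

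Of 15 tested mitochondrial aminoacyl-tRNA synthetases, which charge the tRNAs, 0 rose and 3 fell in SK-BR-3, against 11.3% of all genes called as higher and 6.87% as lower. In MCF-10A 0 were called, against 6.28% of all genes, and the block fit called 2 as lower, against 15.9% in either direction. MARS2 (methionine) fell to 4.39 ± 0.354 FPKM in SK-BR-3 with DATS, against 6.78 ± 0.489 FPKM with DMSO (-0.53 ± 0.09, adjusted p = 0.00429). VARS2 (valine) fell to 6.26 ± 0.727 FPKM there, against 8.68 ± 1.01 FPKM with DMSO (-0.42 ± 0.09, adjusted p = 0.0129). CARS2 (cysteine) fell to 8.71 ± 0.220 FPKM there, against 10.5 ± 0.419 FPKM with DMSO (-0.25 ± 0.06, adjusted p = 0.0165). The VARS2 and CARS2 calls were each lost without SK-BR-3 DMSO preparation 2 or 3. The list medians were -0.11 in SK-BR-3 and 0.02 in MCF-10A.

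Of 77 mitochondrial ribosomal proteins, 3 rose and 8 fell in SK-BR-3, against 11.3% of all genes called as higher and 6.87% as lower. In MCF-10A 0 rose and 1 fell, against 4.17% and 2.11%. The list medians were -0.06 in SK-BR-3 and -0.02 in MCF-10A. The block fit gave 6 higher and 13 lower in SK-BR-3, against 27.4% of all genes in either direction, and 1 higher and 2 lower in MCF-10A, against 15.9%. MRPL12, a large-subunit protein that also binds the mitochondrial RNA polymerase, fell in both lines. It had 36.3 ± 8.21 FPKM in SK-BR-3 with DATS, against 67.1 ± 12.4 FPKM with DMSO (-0.88 ± 0.19, adjusted p = 0.0106). In MCF-10A it had 11.4 ± 2.08 FPKM with DATS, against 19.8 ± 2.56 FPKM with DMSO (-0.74 ± 0.19, adjusted p = 0.042), a call lost without any one of the 6 MCF-10A libraries or without SK-BR-3 DMSO preparation 3. MRPS24, of the small subunit, rose to 1.88 ± 0.238 FPKM in SK-BR-3 with DATS, against 0.705 ± 0.202 FPKM with DMSO (0.76 ± 0.13, adjusted p = 0.00327). MRPL38, of the large subunit, fell to 1.15 ± 0.156 FPKM, against 2.41 ± 0.255 FPKM (-0.66 ± 0.12, adjusted p = 0.00439).

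The authors' deposited tables, which list genes at an unadjusted p under 0.05, hold 6 mitochondrial genes for SK-BR-3 and 4 for MCF-10A. In the authors' deposited table for SK-BR-3 the log2 fold changes of DATS over DMSO were 0.52 for MT-TN (adjusted p = 0.00155), 0.44 for MT-TP (0.0073), 1.28 for MT-TL1 (0.0108), 0.43 for MT-RNR2 (0.01344), 0.48 for MT-RNR1 (0.02865) and 1.16 for MT-TR (0.174). In the authors' deposited table for MCF-10A they were -1.91 for MT-TY (0.000504), 0.52 for MT-RNR1 (0.00188), 0.46 for MT-RNR2 (0.01735) and -0.25 for MT-ATP6 (0.151). These tables hold both rRNAs past an adjusted p of 0.05 in both lines, where limma did not call them, and no mRNA past it in either line.

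Nuclear copies of mitochondrial genes could share reads with their sources. The table names 407 such copies, 41 of them with any read, and together they held 0.741% to 1.09% of the number of reads in the 37 genes. The 3 with the highest mean, all on chromosome 1, held 97.2% to 98.7% of those reads. MTATP6P1 (chromosome 1, 633696 to 634376) had 730, 976 and 522 FPKM in SK-BR-3 with DATS, against 704, 834 and 746 FPKM with DMSO, and 746, 654 and 594 FPKM in MCF-10A with DATS, against 448, 497 and 699 FPKM with DMSO. Its highest and lowest SK-BR-3 DATS libraries were preparations 2 and 3, as for most of the mRNAs. MTCO1P12 and MTND2P28 reached at most 52.3 and 26.6 FPKM.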

How the data were processed

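The labels place the 12 RNA-seq libraries in 4 groups of 3. Per the submitters' processing notes, STAR 2.6.1d, DESeq2 and the build GRCh38 were used. How reads were assigned to genes and strands, the gene annotation, and whether poly(A) selection or rRNA depletion was used are each not given in the sources. The deposited FPKM were made by the authors from gene read counts, gene length and an effective library size that was 0.886 to 1.07 of the reads in genes. The authors' comparison tables hold whole read counts, log2 fold changes and p-values per the file headers, and list genes whose unadjusted p was below 0.05.

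Whole reads were recovered from the steps of the FPKM values (704820 of 704820 values whole within 1e-06 reads), and equalled 45252 of 45252 deposited counts. Depth was 15295046 to 18407213 reads in genes, and counting error only is covered by read numbers. Tests used limma 3.58.1 in R 4.3.3 on log2(FPKM + 1), with a pseudocount of 1, all 12 libraries in 1 fit and 13194 genes that had at least 1 FPKM in at least 3 libraries. The log2 scale with a pseudocount understates the change of low genes. edgeR 4.0.16 and DESeq2 1.42.0 were run on the recovered reads as alternatives. limma and edgeR were also run on simulated counts with the same fixed spread for all genes. That check does not show how the tests do at the spread of these libraries. Same-numbered DATS and DMSO libraries deviated together in every pair (correlations 0.245 to 0.394 for the SK-BR-3 pairs, 0.186 to 0.333 for the MCF-10A pairs). The block fit therefore took the numbers to pair the samples, from the data and not from the labels. The main test did not pair them. Other alternatives were a pseudocount of 0.1, other filters, quantile normalization, 2 other library sizes (1 chosen after seeing the data), only the 6 libraries compared, and each library left out.

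Members and gene lists were chosen with earlier results of these data known. The text names all mRNAs and rRNAs of the rule, tRNA genes with at least 10 reads in at least 3 libraries, among the up to 3 tested genes of each nuclear list with the largest absolute log2 change in a DATS comparison those that were called, and the 3 most abundant nuclear copies. MT-TD and the nuclear copy MTCO2P12 were named after their values were seen. Sequences and positions are those of GENCODE 29 on GRCh38, whose merged exon lengths equalled 7542 of 7542 deposited gene lengths. A gene of the synthetase list is not reported here and was left out of that list's counts.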

Additional observations from a re-analysis of the deposited data

Results flagged for a closer look

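Of the 155 listed nuclear genes tested, 3 had a DATS response in SK-BR-3 that differed from that in MCF-10A by the limma test of the difference, against 4.29% of all genes. The difference in log2 change, SK-BR-3 minus MCF-10A, was 0.5383 for TFAM, which fell in MCF-10A and had 0.12 ± 0.09 in SK-BR-3. It was -0.4812 for GTPBP3, which fell in SK-BR-3 and had -0.23 ± 0.07 in MCF-10A. It was 0.4782 for MRPL3, a large-subunit protein of the mitochondrial ribosome. MRPL3 rose in SK-BR-3 by 0.27 ± 0.08 (adjusted p = 0.032) and had -0.20 ± 0.08 in MCF-10A (adjusted p = 0.136). Of 12 fits without 1 library, the MRPL3 difference was called in 5, the GTPBP3 difference in 4 and the TFAM difference in 3. The fit with the replicate block called 9 of the 155, these 3 and FASTK, VARS2, RRM2B, MRPL16, MRPL38 and MRPL41, against 9.82% of all genes. MRPL3 and the genes added by the block were named after their values were seen.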

How the results depend on the processing

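The replicate block, which pairs the DATS and DMSO libraries of a number, gave 1 rRNA called in each line (0 without it), 3 tRNAs in MCF-10A, 4 tRNAs in SK-BR-3 and 3 tRNAs for the difference of the responses. It gave 2100 genes in MCF-10A (829 without it), 3621 in SK-BR-3 (2391) and 1296 for the difference (566), and changed no other count of mitochondrial classes by over 1.5 times. DESeq2 called 2 rRNAs in each line, 3 tRNAs in SK-BR-3, 1 tRNA for the difference, and 1456 genes in MCF-10A and 1094 for the difference. edgeR called 2 tRNAs in SK-BR-3, as did a pseudocount of 0.1. Quantile normalization called 1 mRNA and 1 rRNA in MCF-10A, 0 tRNAs in SK-BR-3, 1 mRNA for the difference, 1 rRNA between the lines, and 1249 genes in MCF-10A. It turned the sign of the MT-RNR2 difference (0.04409) and of MT-CO1 between the lines (-0.04369), both abundant genes for which this scaling can show little difference. With no filter, 0 tRNAs were called in either line, 3 mRNAs and 1 rRNA between the lines, 418 genes in MCF-10A and 250 for the difference. With the 6 libraries of a line alone, 0 tRNAs were called in either line, and 0 genes in MCF-10A (3285 at an unadjusted p under 0.05) and 917 in SK-BR-3. A minimum of 10 reads left 5 tRNAs called between the lines, since fewer tRNA genes were tested. The mRNA share of SK-BR-3 with DMSO was 6.109% with protein-coding and mitochondrial genes as denominator. Apart from the minimum of reads, the cause was not tested.

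Leaving out 1 library gave 0 to 1 mRNAs, 0 to 1 rRNAs, 0 to 2 tRNAs and 86 to 1945 genes in MCF-10A. It gave 0 to 1 rRNAs, 1 to 5 tRNAs and 1253 to 2657 genes in SK-BR-3, and 0 to 1 tRNAs and 136 to 1035 genes for the difference. The lowest and highest of these counts came without DMSO preparations 1 and 3 in MCF-10A, and without SK-BR-3 DMSO preparation 3 and MCF-10A DMSO preparation 3 in SK-BR-3. The difference of the responses lay between -0.193 and 0.0829 for MT-RNR1, between -0.187 and 0.097 for MT-RNR2 and between -0.126 and 0.357 for MT-ATP6. Genes called as higher made up 66.3% of calls in MCF-10A and 62.1% in SK-BR-3, against 48.7% and 39.6% with library sizes as all reads in genes. Low read numbers limit all tRNA genes but MT-TN, MT-TC and MT-TP.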
